A study of Mus musculus with 6 samples.

Results

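The 10 genes described here encode the core of the BCL2 family: the survival genes Bcl2, Bcl2l1 and Mcl1, the effectors Bax and Bak1, and the BH3-only genes Bcl2l11, Bbc3, Pmaip1, Bid and Bad. They were chosen by gene symbol from a table of 14868 genes, and each of the 10 had a row. Cells were naïve CD4+ T cells, helper T cells that have not met antigen, taken from wild-type (WT) mice or from mice lacking both copies of Ikzf4, the gene of the transcription factor Eos. Both genotypes were on the C57BL/6J background. All cultures received the same treatment, with plate-bound anti-CD3 at 5 µg/mL and anti-CD28 at 2 µg/mL, 10 ng/mL IL-4 and 10 µg/mL of an antibody against interferon gamma, which drive T helper 2 (Th2) differentiation. Total RNA was taken at 72 h from 3 WT and 3 Ikzf4-/- samples. The labels give neither the structure of the Ikzf4 allele, nor the age or sex of the mice, nor whether the samples came from separate mice or cultures, so p-values measure only the spread between these samples.

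BCL2 family proteins control the permeability of the outer mitochondrial membrane, the step that commits most cells to intrinsic apoptosis. BAX and BAK form the pores, BCL2, BCL-XL and MCL1 hold them in check, and BH3-only proteins are sensors that bind the survival proteins or activate the effectors. In T cells, cytokine receptors that signal through STAT5 support survival gene expression, and BIM, the product of Bcl2l11, removes activated cells when cytokine becomes limiting.

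Values are normalized read counts, that is, reads per gene divided by a size factor for each library. Libraries held an implied 34701390 to 40604346 reads, and the total of normalized counts was 36104061 to 37374946. For Ikzf4-/- replicates 1 and 3, with size factors of 0.9913 and 0.9954, the implied reads were not accepted as recovered. Ikzf4 was at 755.8, 499.6 and 483.3 in WT replicates 1 to 3 and at 25.2, 10.5 and 38.2 in Ikzf4-/- replicates 1 to 3, so each library matched its label. Y-linked genes were present in all 6 libraries, with Ddx3y at 2375 or more, while Xist was at 85.8 and 110.5 in Ikzf4-/- replicates 2 and 3 and at 0.971 to 4.26 in the others, and its part in the results was not tested. T cell markers were high in every library, with sums over 7 genes from 95254 to 101368. Il4, Il13, Il4ra and Ccr8 of the 7 Th2 markers were lower in Ikzf4-/- cells at an adjusted p under 0.05. Markers of CD8 T cells (sums 232 to 423.1 over 2 genes), B cells (51.1 to 90.4 over the 2 of 4 with a row), myeloid cells (59.6 to 96.1 for the 1 of 6 with a row) and NK cells (149 to 299.2 for the 1 of 4 with a row) were low, and their ranges overlapped between genotypes. On the first principal component WT replicate 1 lay at -41.3, apart from the other WT libraries at -12.5 and -5.3, and the Ikzf4-/- libraries lay at 11.1, 17.1 and 30.8. WT replicate 1 had the highest Bcl2 and Mcl1 and the lowest Bcl2l11, Bbc3, Pmaip1, Bax, Bak1 and Bid of the 3 WT libraries, so results are given with and without it where it matters.

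In Ikzf4-/- cells the survival gene Bcl2 fell by 0.45 on the log2 scale, to 0.734 of its WT level, and it was the 1 member that passed the test. Differences throughout are Ikzf4-/- minus WT on the log2 scale, that is, log2 fold changes. The BH3-only genes Bcl2l11, Bbc3 and Pmaip1 had estimates of 0.29, 0.48 and 0.30 above WT, with 95% intervals above 0, but adjusted p-values of 0.121, 0.177 and 0.142 by limma. The other 6 members had estimates between -0.16 and 0.10. Thus 1 of 10 members was called at a limma adjusted p under 0.05, where 1.77% of the 14864 genes tested were called. The authors' deposited table held adjusted p-values under 0.05 for 3 of the 10, Bcl2, Bcl2l11 and Bbc3, where 6.34% of the 12849 genes with an adjusted p did. WT and Ikzf4-/- values were fully separated for 2 of 10 members, Bcl2 and Bcl2l11, and for 23.1% of all genes tested. The median log2 difference of the 10 members was -0.02, beside 0.00 over all genes tested, and the median size of the change was 0.13 beside 0.11. In bulk RNA, fewer cells that express a gene and less of its RNA per cell cannot be told apart.

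**Figure D1:**
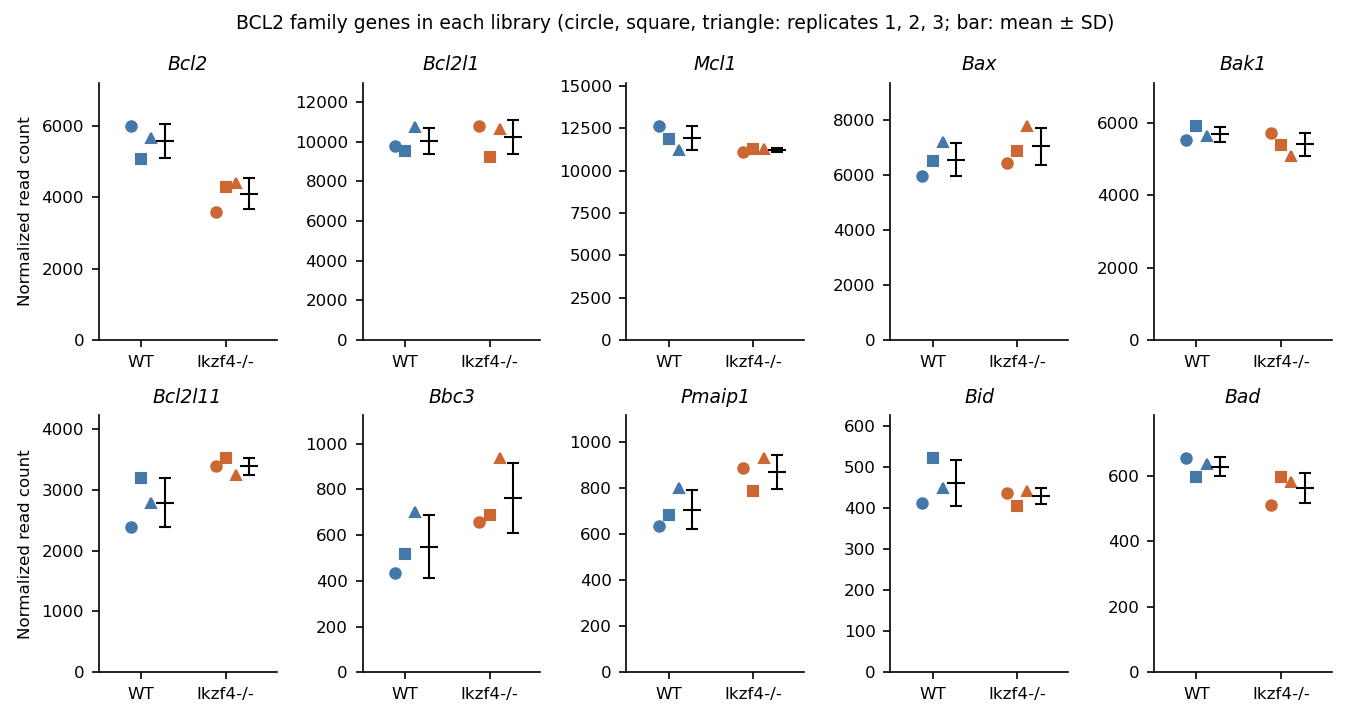
Normalized read counts (y axes, from 0) of the 10 BCL2 family genes in WT and Ikzf4-/- libraries, with replicates as symbols and the mean ± SD (n = 3) as a bar. Bcl2 lies between 3598 and 4408 in Ikzf4-/- libraries and between 5066 and 6001 in WT libraries, and Bcl2l11 separates the other way with a narrow gap from 3184 to 3241.

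Bcl2 (ENSMUSG00000057329, chromosome 1, 106538178 to 106714274, minus strand of GRCm38) encodes the survival protein that gave the family its name. It was at 6001, 5066 and 5666 in WT replicates 1 to 3 and at 3598, 4293 and 4408 in Ikzf4-/- replicates 1 to 3. The highest Ikzf4-/- library lay below the lowest WT library. The mean went from 5578 ± 473.7 to 4100 ± 438.2 (SD, n = 3 each), a log2 difference of -0.45 with an SE of 0.08 (95% interval -0.63 to -0.26, limma adjusted p = 0.0303). The authors' deposited table gave Bcl2 a log2 fold change of -0.44 at an adjusted p of 1.13e-05. The call was lost whichever Ikzf4-/- library was left out. Without Ikzf4-/- replicate 1, 2 or 3 the limma adjusted p was 0.0712, 0.0622 and 0.0771, with log2 differences of -0.35, -0.48 and -0.50. These fits have 5 libraries, and the genes called over the whole table fell from 263 to 48, 112 and 20. Without WT replicate 1 the log2 difference was -0.39 and the adjusted p was 0.0287. Exons of Bcl2 share 558 bases, 6.09% of its exon length, with D630008O14Rik on the other strand, a gene with no row.

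Bcl2l1 (ENSMUSG00000007659, chromosome 2, 152780668 to 152831728, minus strand), whose main product BCL-XL protects activated T cells, was at 9788, 9524 and 10744 in WT and at 10791, 9244 and 10635 in Ikzf4-/- libraries. The WT range lay inside the Ikzf4-/- range. Its log2 difference was 0.03 (95% interval -0.12 to 0.17, limma adjusted p = 0.874), so the interval takes in changes from -7.93% to 12.9%. Mcl1 (ENSMUSG00000038612, chromosome 3, 95658788 to 95663176, plus strand), which encodes a short-lived survival protein, was at 12644, 11858 and 11238 in WT and at 11115, 11260 and 11307 in Ikzf4-/- libraries. The Ikzf4-/- libraries lay close together, with a coefficient of variation of 0.892% against 5.91% in WT, and overlapped the lowest WT library. The log2 difference of Mcl1 was -0.08 (95% interval -0.19 to 0.02, limma adjusted p = 0.406). Of the 3 survival genes, 1 was called by limma, lower in Ikzf4-/- cells, beside 1.77% of all genes tested.

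The effector Bax (ENSMUSG00000003873, chromosome 7, 45461697 to 45466898, minus strand) was at 5975, 6518 and 7192 in WT and at 6438, 6896 and 7792 in Ikzf4-/- libraries. The ranges overlapped, with the lowest value in WT and the highest in Ikzf4-/- cells. Its log2 difference was 0.10 (95% interval -0.07 to 0.28, limma adjusted p = 0.549). Bak1 (ENSMUSG00000057789, chromosome 17, 27019810 to 27029009, minus strand), the gene of the other pore-forming protein BAK, was at 5515, 5915 and 5631 in WT and at 5730, 5386 and 5085 in Ikzf4-/- libraries. Its log2 difference was -0.08 (95% interval -0.20 to 0.04, limma adjusted p = 0.509). Neither effector passed the test, and the intervals of both lay within 0.28 of no change on the log2 scale. Exons of Bak1 share 437 bases, 18.2% of its exon length, with Ggnbp1 on the other strand, which was at 128.6 to 150.8. The use of strand in counting is not given in the sources used here, so reads from these shared bases cannot be assigned. Exons of Bax share 192 bases, 12.2% of its exon length, with Gm45808 on the same strand, a gene with no row.

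Bcl2l11 (ENSMUSG00000027381, chromosome 2, 128126038 to 128162547, plus strand) encodes BIM, the BH3-only protein with the best known part in the death of activated T cells. It was at 2380, 3184 and 2787 in WT and at 3392, 3518 and 3241 in Ikzf4-/- libraries. All 3 Ikzf4-/- libraries lay above the highest WT library, with a narrow gap between the nearest values. The mean was 2784 ± 401.6 in WT and 3383 ± 138.5 in Ikzf4-/- cells (SD, n = 3 each), and the log2 difference of 0.29 (SE 0.09, 95% interval 0.09 to 0.49) did not pass the test (limma adjusted p = 0.121). The authors' deposited table gave Bcl2l11 0.28 at an adjusted p of 0.0304. Without WT replicate 1, which was the lowest, the limma log2 difference was 0.18 and the adjusted p was 0.22.

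Bbc3 (ENSMUSG00000002083, chromosome 7, 16308393 to 16318205, plus strand) encodes PUMA, a BH3-only protein and a known target of p53. It was at 433.3, 515.8 and 700.7 in WT and at 657.7, 687.8 and 936.3 in Ikzf4-/- libraries. WT replicate 3 lay above 2 of the Ikzf4-/- libraries, and the spread within each genotype was the widest of the members, with coefficients of variation of 24.9% and 20.1%. The log2 difference of 0.48 (SE 0.17, 95% interval 0.10 to 0.86) was the highest estimate among the 10 genes and did not pass the test (limma adjusted p = 0.177). Without WT replicate 3 it was 0.67 with an adjusted p of 0.0417, and without WT replicate 1 it was 0.32 with an adjusted p of 0.381. The authors' deposited table gave 0.47 with an adjusted p of 0.0498, just under the threshold.

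Pmaip1 (ENSMUSG00000024521, chromosome 18, 66458533 to 66465565, plus strand) encodes NOXA, which binds MCL1 and promotes its loss. It was at 634.5, 681.1 and 799.7 in WT and at 887.7, 787.3 and 929.3 in Ikzf4-/- libraries, and Ikzf4-/- replicate 2 lay just under WT replicate 3. The log2 difference was 0.30 (95% interval 0.08 to 0.52, limma adjusted p = 0.142), and 0.30 with an adjusted p of 0.0789 in the authors' deposited table. Pmaip1 was thus not called in either analysis. Without WT replicate 1 its limma log2 difference was 0.23 (adjusted p = 0.318), and without WT replicate 3 it was 0.40 (0.0524).

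Bid (ENSMUSG00000004446, chromosome 6, 120891930 to 120916853, minus strand) links death receptors to mitochondria once caspase-8 has cleaved its product. It was at 412, 522 and 448.4 in WT and at 437.8, 406.2 and 442 in Ikzf4-/- libraries, with a log2 difference of -0.10 (95% interval -0.33 to 0.14, limma adjusted p = 0.685). Bad (ENSMUSG00000024959, chromosome 19, 6941861 to 6951899, plus strand) encodes a protein that growth factor kinases inactivate. It was at 653.6, 594.8 and 634.7 in WT and at 509.4, 595.7 and 579.7 in Ikzf4-/- libraries, with a log2 difference of -0.16 (95% interval -0.36 to 0.03, limma adjusted p = 0.371). The ranges of both genes overlapped between genotypes. Their exons also overlap genes on the other strand, Bid by 628 bases (17.7% of its exon length) with its relative Bcl2l13, which was at 3067 to 3304, and Bad by 524 bases (20.5%) with Gpr137, which was at 425.8 to 535.7. Of the 5 BH3-only genes 0 were called by limma, beside 1.77% of all genes tested. Their estimates lay above 0 for 3 and below 0 for 2, and their median log2 difference was 0.29.

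**Figure D2:**
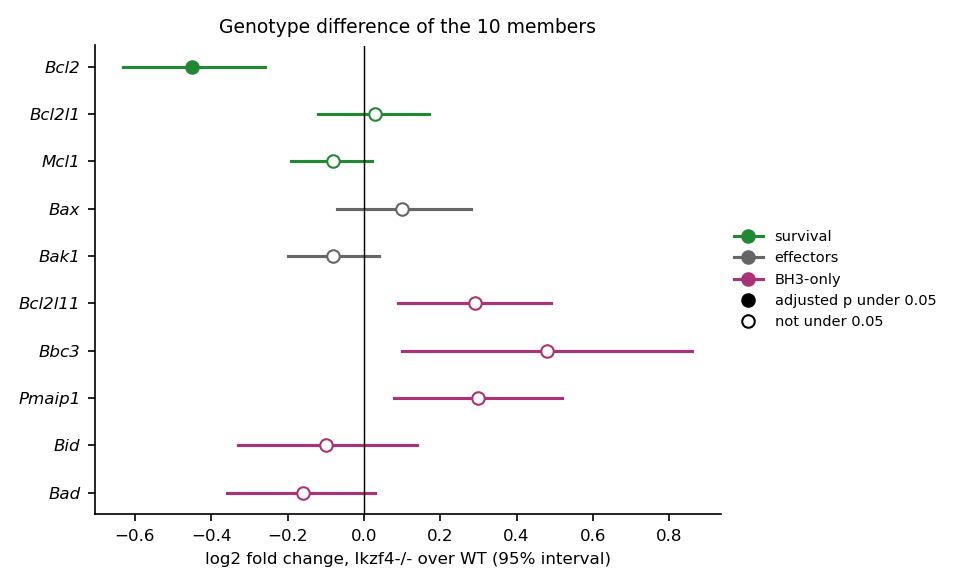
Log2 fold change (x axis, Ikzf4-/- over WT) of each member with its 95% interval from limma on 3 and 3 libraries, coloured by role. Bcl2 at -0.45 is filled for an adjusted p under 0.05, and the intervals of Bcl2l11, Bbc3 and Pmaip1 lie above 0 without passing adjustment over 14864 genes.

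The regions before the start sites of Bcl2 and Bcl2l11 are shown because these are the 2 members whose genotypes did not overlap, in opposite directions. Genotypes did not overlap for 23.1% of all genes tested, so this choice does not set the 2 apart from other genes. Each is the 250 bases before the most upstream RefSeq start, on the strand of the gene, from the RefSeq promoter table of GRCm38.p6. Bcl2 covers chr1:106714291-106714540 on the minus strand and Bcl2l11 covers chr2:128125788-128126037 on the plus strand. Capitals mark matches to the motifs searched.
Bcl2: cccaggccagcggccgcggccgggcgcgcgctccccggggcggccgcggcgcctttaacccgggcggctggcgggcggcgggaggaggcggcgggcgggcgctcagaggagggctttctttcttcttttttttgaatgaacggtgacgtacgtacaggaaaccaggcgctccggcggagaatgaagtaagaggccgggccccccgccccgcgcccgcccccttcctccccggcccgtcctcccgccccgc
Bcl2l11: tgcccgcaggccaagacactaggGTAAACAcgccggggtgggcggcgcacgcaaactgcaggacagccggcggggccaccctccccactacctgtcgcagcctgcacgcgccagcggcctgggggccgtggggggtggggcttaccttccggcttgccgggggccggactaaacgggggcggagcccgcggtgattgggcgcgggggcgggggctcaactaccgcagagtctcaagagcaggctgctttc
Both were rich in G and C, at 74.8% for Bcl2 and 72% for Bcl2l11. The motifs searched on both strands were TTCNNNGAA of STAT factors, GGGAA, the core of Ikaros-family sites that also lies inside NF-κB sites, and GTAAACA of forkhead factors. The Bcl2 window held none of them, which says only that these letters are not in these 250 bases. The Bcl2l11 window held a single GTAAACA, at -227 to -221 relative to the start, and FOXO proteins are forkhead factors long known as activators of Bcl2l11. Of the 9 members searched, 0 held TTCNNNGAA, 6 held GGGAA (Bcl2l1, Mcl1, Bax, Bak1, Bbc3 and Bad) and 1 held GTAAACA. Over all 32851 windows of the same length in the table the shares were 7.02%, 56.2% and 3.17%. A match describes the sequence and is not evidence of binding.

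To compare levels between genes, normalized counts were divided by the length of the merged exons in GENCODE M21, in kilobases. This length counts every annotated exon and can exceed the transcript in use, most of all for Bcl2 at 9157 bases and Bcl2l11 at 8029 bases. In WT cells Bax was highest at 4164 ± 386.9 per kilobase (SD, n = 3), followed by Mcl1 at 3485 ± 206, Bak1 at 2363 ± 85.5 and Bcl2l1 at 2185 ± 140. Bcl2 came next at 609.1 ± 51.7, well below the other survival genes. Bcl2l11 was at 346.7 ± 50, Bbc3 at 258.9 ± 64.5, Pmaip1 at 258.1 ± 31.2, Bad at 245.4 ± 11.7 and Bid at 129.8 ± 15.8. The WT ranges of Bak1 and Bcl2l1 overlapped, as did those of Bcl2l11 and Bbc3, of Bbc3 and Pmaip1, and of Pmaip1 and Bad, so these neighbours could not be ordered. The order of the means was identical in Ikzf4-/- cells, where Bcl2, at 447.7 ± 47.9, and Bcl2l11, at 421.4 ± 17.3, had come close and overlapped.

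The 3 survival genes made up 43.1% to 47.4% of the summed level per kilobase of the 10 members in WT and 41.6% to 43.3% in Ikzf4-/- libraries. The effectors took 44.5% to 47.6% and 46.7% to 48.0%. The 5 BH3-only genes were a small part in every library, at 8.07%, 9.08% and 9.27% in WT and 9.97%, 10.1% and 10.4% in Ikzf4-/- libraries. Their share was higher in each Ikzf4-/- library than in each WT library, as a description with no test, since these shares combine members chosen with earlier results known. Bcl2 alone went from 3.96% to 4.79% of the summed level per kilobase in WT to 2.84% to 3.40% in Ikzf4-/- libraries.

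Ratios within a library set a survival gene against a death gene and do not depend on the size factor. The log2 ratio of Bcl2 to Bcl2l11 in normalized counts was 1.33, 0.67 and 1.02 in WT and 0.09, 0.29 and 0.44 in Ikzf4-/- libraries. The ratio was lower in each Ikzf4-/- library than in any WT library. The mean moved from 1.01 ± 0.33 to 0.27 ± 0.18 (SD, n = 3 each), a difference of -0.74, and of -0.57 without WT replicate 1. The log2 ratio of Bcl2 to Bax moved from -0.23 ± 0.21 to -0.78 ± 0.09, a difference of -0.55, and its genotypes did not overlap either. Both of these ratios contain Bcl2, whose own log2 difference was -0.45, so they are not separate from its fall. Bax alone had a log2 difference of 0.10. The log2 ratio of Mcl1 to Pmaip1, whose products bind each other, was 4.31, 4.12 and 3.81 in WT and 3.64, 3.84 and 3.60 in Ikzf4-/- libraries, so the genotypes overlapped. The log2 ratio of Bcl2l1 to Bad was 3.99 ± 0.09 and 4.18 ± 0.22 and overlapped too. These are descriptions with no test.

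**Figure D3:**
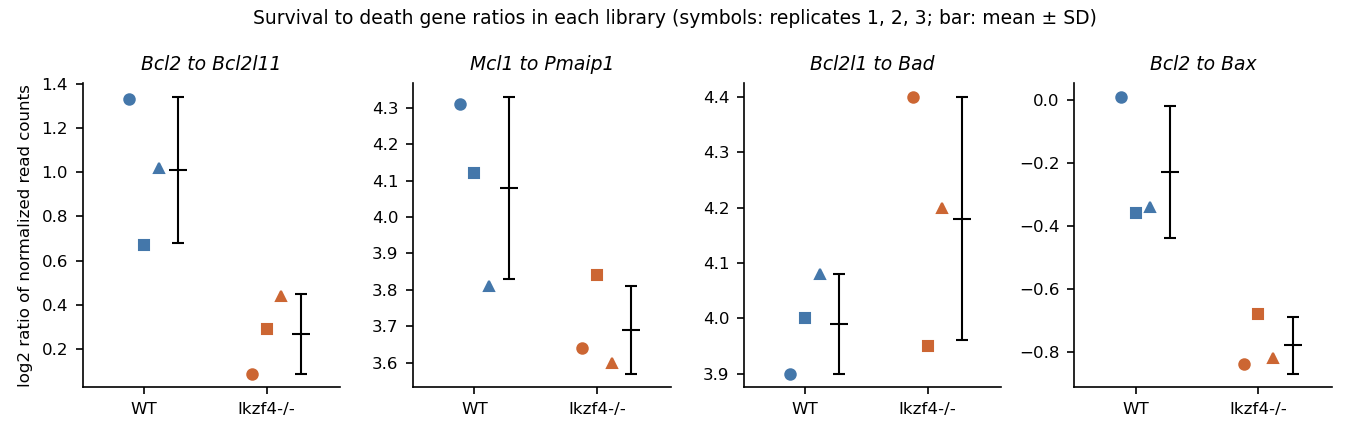
Log2 ratio of normalized read counts (y axes, each with its own range not starting at 0) of a survival gene to a death gene in each library, with the mean ± SD (n = 3). The ratios of Bcl2 to Bcl2l11 and of Bcl2 to Bax are lower in every Ikzf4-/- library than in any WT library, while the other 2 ratios overlap.

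Of 16 other BCL2 relatives listed, 11 had a row, and 1 of these was called by limma, beside 1.77% of all genes tested. Bnip3, whose product sits on mitochondria and marks them for removal by autophagy, was at 5228, 3318 and 3189 in WT and at 1703, 2565 and 1743 in Ikzf4-/- libraries. It fell by 0.95 on the log2 scale (SE 0.19, limma adjusted p = 0.0372) with no overlap between genotypes. WT replicate 1 was far above the other WT libraries, and without it the log2 difference was -0.73 with an adjusted p of 0.016. The call was lost without WT replicate 2 (adjusted p = 0.0615), without Ikzf4-/- replicate 1 (0.109) and without Ikzf4-/- replicate 3 (0.141). Its close relative Bnip3l was at 7697, 7121 and 6431 in WT and at 5086, 6293 and 4815 in Ikzf4-/- libraries, with a log2 difference of -0.40 and a limma adjusted p of 0.0616. By limma Bnip3l was called without WT replicate 3 (adjusted p = 0.0326) and without Ikzf4-/- replicate 2 (0.0267). With any other library left out it was not called (0.0963 to 0.206). In the authors' deposited table its adjusted p was 0.000816. Bcl2l14 had a log2 difference of -0.89 from low counts of 89.5 ± 28.7 and 46.8 ± 9.08 (SD, n = 3 each). It was not called by limma (adjusted p = 0.114), while its adjusted p in the authors' deposited table was 0.0484. Bcl2l13 was at 3145 ± 71.4 and 3265 ± 62 (SD, n = 3 each; limma adjusted p = 0.598).

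The A1 genes Bcl2a1b and Bcl2a1d, survival genes of activated lymphocytes, are named here after their values were seen. Bcl2a1b was at 1594, 1771 and 1842 in WT and at 2016, 2149 and 2127 in Ikzf4-/- libraries, a log2 difference of 0.28 (limma adjusted p = 0.0616). Bcl2a1d was at 1019, 1330 and 1384 in WT and at 1689, 1727 and 1576 in Ikzf4-/- libraries, a log2 difference of 0.43 (limma adjusted p = 0.0621). Neither was called by limma. The genotypes did not overlap for either, as for 23.1% of all genes tested. These survival genes had estimates opposite in sign to that of Bcl2. The A1 genes are near-identical copies of each other, and how reads shared between them were counted is not given in the sources used here, so each value is uncertain.

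**Figure D4:**
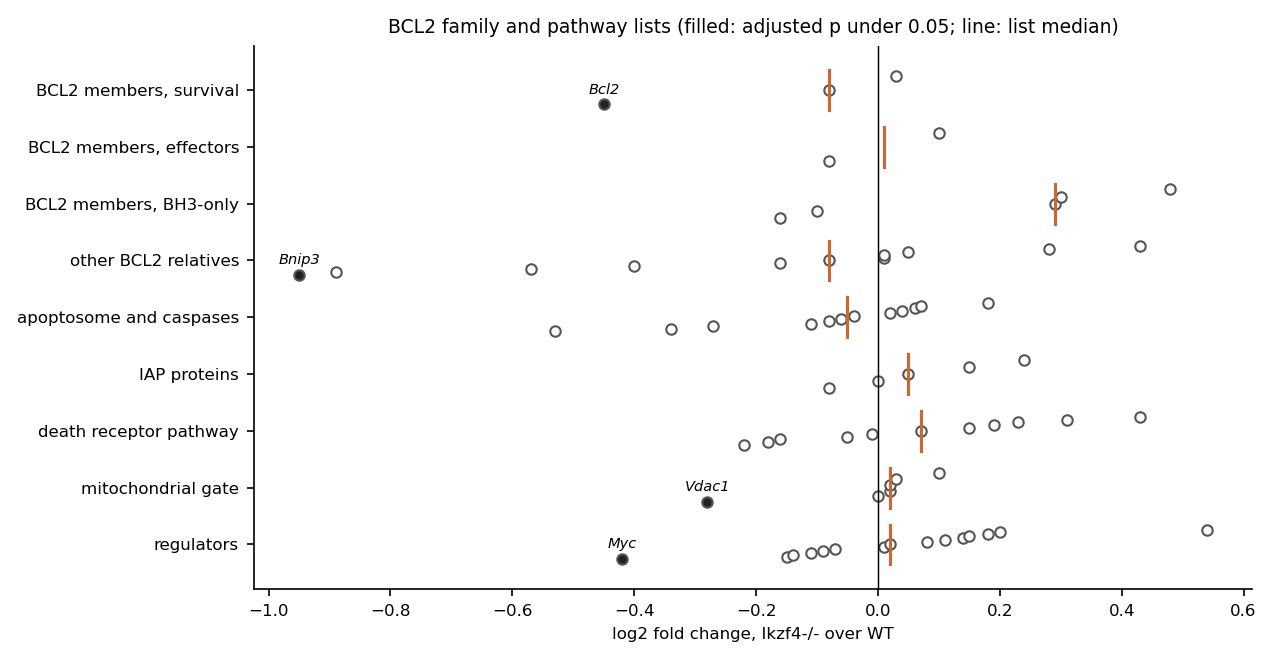
Log2 fold change (x axis, Ikzf4-/- over WT) of each member and of the genes of 6 further lists, with called genes filled and the median of each list as a line. Bcl2, Bnip3, Vdac1 and Myc are the genes called by limma, each below 0, and every list has members on both sides of 0.

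Over all 6 pathway lists, BCL2 relatives and regulators included, 60 of 66 genes had a row and were tested. By limma 3 of the 60 were called, each lower in Ikzf4-/- cells, beside 1.77% of all genes tested. The median log2 difference of the 60 was 0.01. Genotypes did not overlap for 28 of the 60, beside 23.1% of all genes tested. The authors' deposited table called 12 of these genes, 5 of them higher in Ikzf4-/- cells, beside 6.34% of the 12849 genes with an adjusted p there.

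On the list of mitochondrial gate genes, 1 of 6 was called by limma, beside 1.77% of all genes tested. Vdac1, the major channel of the outer mitochondrial membrane, was at 11594, 10383 and 10059 in WT and at 9091, 8846 and 8394 in Ikzf4-/- libraries and fell by 0.28 on the log2 scale (SE 0.06, limma adjusted p = 0.0436). This call was lost without WT replicate 2 (adjusted p = 0.0805) and without each Ikzf4-/- replicate (0.0836, 0.116 and 0.157 for replicates 1 to 3). The sister channel Vdac2, which holds BAK in place, was at 8341 ± 335.7 and 8487 ± 703.6 (SD, n = 3 each; limma adjusted p = 0.889). Ppif, the gene of the matrix protein cyclophilin D, had a log2 difference of 0.10 (limma adjusted p = 0.348).

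None of the 12 genes of the apoptosome and caspase list was called by limma, beside 1.77% of all genes tested. Genotypes did not overlap for 4 of the 12, beside 23.1% of all genes tested. Casp6 had a log2 difference of -0.53 (limma adjusted p = 0.105), with WT replicate 1 at 2906 and the other WT libraries at 2072 and 1855. Without WT replicate 1 its log2 difference was -0.34 (adjusted p = 0.169), and without WT replicate 3 it was -0.67 (0.0436). Endog, a mitochondrial nuclease, had a log2 difference of -0.34 (limma adjusted p = 0.129). Cycs, which encodes the cytochrome c released through BAX and BAK pores, was at 9024 ± 270.9 and 8658 ± 345.8 (SD, n = 3 each; limma adjusted p = 0.549).

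None of the 5 inhibitor of apoptosis (IAP) genes and none of the 11 death receptor genes was called by limma. Of all genes tested, 1.77% were called. Genotypes did not overlap for 3 of the 5 IAP genes and 5 of the 11 death receptor genes, beside 23.1% of all genes tested. Birc2, the gene of cIAP1, was at 1197, 1209 and 1108 in WT and at 1402, 1377 and 1355 in Ikzf4-/- libraries (log2 difference 0.24, limma adjusted p = 0.0824). Its adjusted p in the authors' deposited table was 0.0474. Birc6 had a log2 difference of 0.15 (limma adjusted p = 0.146) and Birc5, the gene of survivin, of -0.08 (0.389). Among death receptor genes, Tnfrsf10b, the mouse TRAIL receptor, was at 459.9, 549 and 670.6 in WT and at 712.2, 679.4 and 851.9 in Ikzf4-/- libraries. The genotypes did not overlap, as for 23.1% of all genes tested. Its log2 difference was 0.43 (limma adjusted p = 0.129, and 0.034 in the authors' deposited table). Without WT replicate 3 the limma adjusted p was 0.0355. With any other library left out it was 0.193 to 0.354, and without WT replicate 1 the log2 difference was 0.29 (0.273). Tnfsf10, which encodes TRAIL itself, had a log2 difference of -0.16 (limma adjusted p = 0.0949). Fas had a log2 difference of 0.31 (limma adjusted p = 0.439), and Casp8, the initiator caspase that cleaves BID, of -0.05 (0.65).

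Of 15 tested regulators of BCL2 family genes or proteins, 1 was called by limma, beside 1.77% of all genes tested. Myc, which sensitizes cells to apoptosis as it drives growth, was at 6834, 5242 and 5355 in WT and at 4378, 3970 and 4565 in Ikzf4-/- libraries and fell by 0.42 on the log2 scale (limma adjusted p = 0.049). The call of Myc lay at the threshold: it was lost with equal library totals (0.0518), with a pseudocount of 0.1 (0.0515), without WT replicate 2 (0.0615) and without Ikzf4-/- replicates 1, 2 and 3 (0.115, 0.161 and 0.115). Without WT replicate 1 its log2 difference was -0.30 with an adjusted p of 0.0253. Nfkb1 had a log2 difference of 0.15 (limma adjusted p = 0.115), and Huwe1, a ubiquitin ligase of MCL1, of 0.11 (0.248). Trim17 was near the low end of the table at 3.19 to 16.1.

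Regulators named after their values were seen were those of STAT5, FOXO and p53. Stat5a and Stat5b, the transcription factors through which IL-2 family cytokines support Bcl2, had log2 differences of 0.08 and -0.09 (limma adjusted p = 0.612 and 0.458). Foxo3 was at 3332, 3159 and 3383 in WT and at 3586, 3583 and 3716 in Ikzf4-/- libraries, with a log2 difference of 0.14 (limma adjusted p = 0.16). Foxo1 had a log2 difference of -0.14 (limma adjusted p = 0.43). Trp53 was nearly level at 7852 ± 112.9 and 7932 ± 108.2 (SD, n = 3 each; 95% interval of the log2 difference -0.08 to 0.10). Mdm2 encodes the ubiquitin ligase of p53, and Cdkn1a the cell cycle inhibitor p21. Mdm2 had a log2 difference of 0.18 (limma adjusted p = 0.171) and Cdkn1a of 0.54 (0.0862). The genotypes did not overlap for Mdm2 or Cdkn1a, as for 23.1% of all genes tested. For Cdkn1a the gap was narrow, from 3608 in WT to 3611 in Ikzf4-/- libraries. WT replicate 1 was the lowest library for both, at 3270 for Mdm2 and 2180 for Cdkn1a. Neither was called.

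Near Bcl2l11, the long noncoding RNA gene Gm14005 lies 15771 bases beyond its end and was at 117.1, 154.5 and 143.6 in WT and at 207.8, 186.3 and 130.6 in Ikzf4-/- libraries (log2 difference 0.32, limma adjusted p = 0.433). The nearest tested genes beside Bcl2 were Phlpp1, 143927 bases away with a log2 difference of 0.06 (limma adjusted p = 0.748), and Kdsr, 6184 bases away with 0.25 (0.121). Neither neighbour of Bcl2 was called, and both estimates were opposite in sign to that of Bcl2. Across the 6 libraries, the genes among 11600 whose log2 values followed Bcl2 most closely were Fkbp8 and Lims1, each with a Pearson correlation of 0.998, and Lman2 with 0.997. Their log2 differences were -0.15, -0.09 and -0.15 and none was called (limma adjusted p = 0.134, 0.352 and 0.105). With 6 libraries and so many genes, correlations of this size are a description of these samples.

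**Figure D5:**
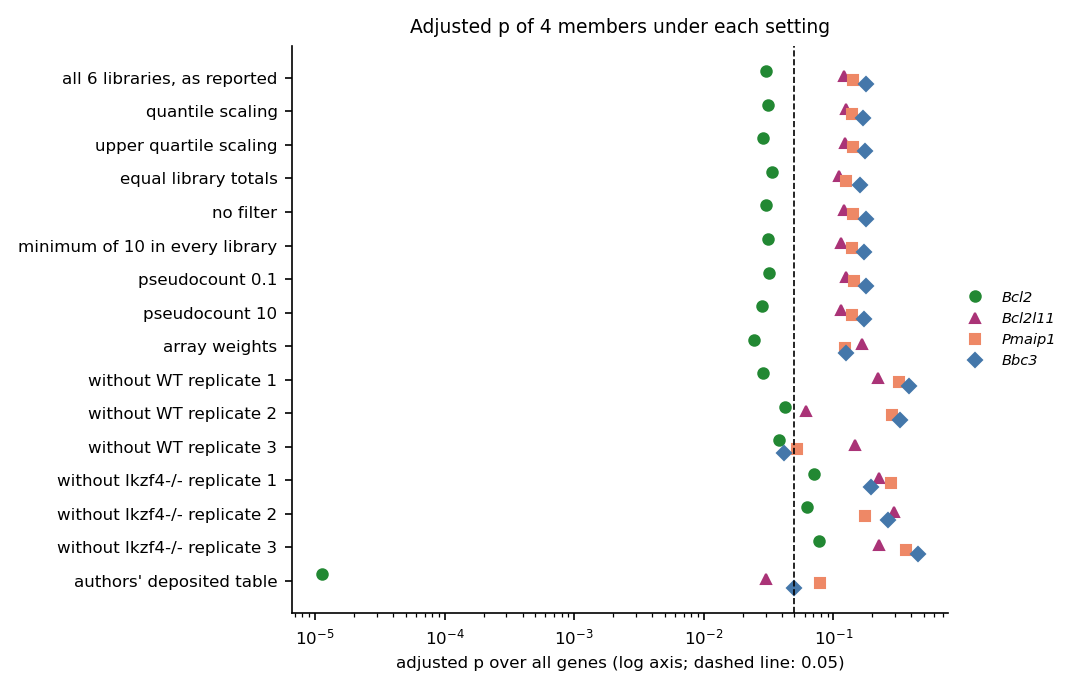
Adjusted p over all genes (x axis, log scale; dashed line at 0.05) of Bcl2, Bcl2l11, Pmaip1 and Bbc3 under the scalings, filters, pseudocounts, array weights and left-out libraries tried and in the authors' deposited table; the fit with a replicate block is not plotted. Bcl2 lies to the left of 0.05 except when an Ikzf4-/- library is left out, and the other 3 genes lie to the right of it except Bbc3 without WT replicate 3, and Bbc3 and Bcl2l11 in the authors' deposited table.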

How the data were processed

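RNA of 3 WT and 3 Ikzf4-/- samples was sequenced. Trimmomatic 0.36, STAR 2.5.2b, DESeq2 and the build GRCm38 (mm10) are named in the submitters' processing notes. The counting tool, its use of strand and the annotation are not given in the sources used here. The deposited table gives a signal per gene and library, read as counts divided by 1 size factor per library (0.9394 to 1.1129), since 100% of values were whole multiples of 1 step per library to within 0.001 of a read. The authors' log2 fold changes, p-values and adjusted p-values stand in the same deposited table, per the file headers. For 2 columns the step lay too near 1 to accept the implied reads as recovered, so no count test was run.

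Genes with a mean of at least 10 were kept (14864 of 14868). Genotype was the single term of a model on log2(value + 1) in limma 3.58.1 (R 4.3.3, moderated with a mean-variance trend). P-values are two-sided, with Benjamini-Hochberg adjustment across the 14864 genes, and genes were called under 0.05. The added 1 makes fold changes of low genes smaller. The procedure was checked on simulated data with planted changes larger than those of the members and the same spread for every gene. That check does not show how often changes of the members' size would be found. Positions and exon lengths came from GENCODE M21 (GRCm38), matched by identifier for 14831 genes.

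The members, lists and motifs were chosen with earlier results of these data known. Named genes were the members, Ikzf4 and, of each pathway list, called genes, the 2 with the highest mean and the 2 with the largest change, then the 3 genes that followed a called member most closely. Other named genes were chosen after their values were seen. A gene that this rule names is not reported here. Alternatives were other scalings, filters and pseudocounts, array weights, a replicate block, leaving out each library, a threshold of 0.01 and the authors' calls.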

Additional observations from a re-analysis of the deposited data

How the results depend on the processing

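Over scalings, pseudocounts and left-out libraries, the difference in log2 ratio ran from -0.906 to -0.574 for Bcl2 to Bcl2l11, -0.612 to -0.428 for Bcl2 to Bax, -0.522 to -0.271 for Mcl1 to Pmaip1 and, without Ikzf4-/- replicate 1 or 2, from 0.081 to 0.305 for Bcl2l1 to Bad. Of the values of single named genes under alternatives, 502 kept their side of the threshold, 20 passed it newly and 20 no longer passed it. No called value reversed. Leaving out each library gave 20 (without Ikzf4-/- replicate 3) to 523 (without WT replicate 3) called genes, 0 to 2 called members (0 without any 1 of the Ikzf4-/- replicates) and 0 to 9 called pathway genes (0 without WT replicate 2 or Ikzf4-/- replicate 1 or 3, 9 without WT replicate 3). Without WT replicate 2 and Ikzf4-/- replicates 1 and 2, 75, 48 and 112 genes were called. These fits have 5 libraries. Array weights gave 482 called genes and 7 called pathway genes. A threshold of 0.01 left 16 genes, 0 members and 0 pathway genes. The authors' deposited table gave 815, 3 and 12. Apart from the stricter threshold, the cause of these shifts was not tested. With equal library totals 42.8% of called genes were higher in Ikzf4-/- cells against 32.3%, with a median shift over all genes of 0.027. With the replicate number as a block, 754 genes, 3 members and 8 pathway genes were called, adding Bcl2l11 (adjusted p = 0.0449) and Bbc3 (0.0117) to Bcl2. Deviations of same-numbered libraries correlated at 0.145, 0.0122 and 0.142 for replicates 1, 2 and 3. The values for replicates 1 and 3 were the highest of all pairs of a WT and an Ikzf4-/- library. WT replicate 2 correlated best with Ikzf4-/- replicate 3 (0.0491). Not every same-numbered pair passed 0.1, and no pairing was assumed. Whether replicates 1 and 3 share a source was not tested. With 3 libraries a group, intervals stayed wide for low members, from 0.10 to 0.86 for Bbc3.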
